A study of Mus musculus with 27 samples.

Results

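The direct comparison of lipopolysaccharide (LPS) with interleukin-4 (IL-4) at 2 h of stimulation is described here, in chromatin-associated RNA of primary mouse macrophages. It used 6 of the 27 samples of the series, 3 for each stimulus, chosen by their labels. Bone marrow-derived macrophages (BMDMs) were grown from wild-type male C57/BL6 mice 6 to 8 weeks old. They were pre-treated for 1 h with DMSO, the solvent control for inhibitors used in other experiments of the study. They were then stimulated with LPS or IL-4, each at 10 ng/ml. Both groups and the 3 untreated samples carried the DMSO, and the untreated samples are given only as a reference level. The labels do not say whether replicates came from separate mice or cultures, so p-values measure the spread between samples, which may be technical. This spread was estimated over all 27 samples of the series. The cells were grown in culture from marrow, so the values are those of BMDMs and not of macrophages taken from a tissue. Of 45070 genes in the table, 11973 were compared, namely those whose normalised read count reached 10 in 3 or more of these 6 samples.

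LPS is a component of the outer membrane of Gram-negative bacteria that macrophages sense through TLR4. Its adaptors MyD88 and TRIF lead to NF-κB and the MAP kinases and, through IRF3, to interferon-β, which then acts back on the cells through its own receptor. IL-4 is a cytokine of type 2 immunity whose receptor signals through JAK1, JAK3 and STAT6. Chromatin-associated RNA is enriched for transcripts that are still being made, so a value stands closer to transcription than total RNA does, although it still counts RNA and not polymerase.

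The normalised read counts summed to between 3954399 and 4058199 per LPS sample, to between 2570663 and 2601295 per IL-4 sample and to between 2488987 and 2578543 per untreated sample. In each group replicates 2 and 3 were closer to each other than to replicate 1: over 666 genes of high level, the SD of the log2 ratio of 2 replicates was 0.143 (LPS), 0.162 (IL-4) and 0.169 (untreated) for replicates 2 and 3, and 0.365 to 0.401 for the other pairs. Of 15 macrophage markers all were measured, and their summed level was 12960 to 14442 after LPS and 12332 to 13371 after IL-4. The marker sets of T and NK cells, of B cells and of mast cells and basophils each summed to at most 8 in any of the 9 samples, and that of dendritic cells to 17 to 40 after LPS and 13 to 25 after IL-4, with Xcr1 at 0. Markers of neutrophils and their precursors summed to 17 to 148 after LPS and 8 to 41 after IL-4, with Ly6g at 0 and Ngp, a granule protein, called higher after LPS (57, 11 and 14 against 13, 4 and 4, groups that overlap), and those of fibroblasts to 39 to 218 and 32 to 209, with Lum at 0. Of 5 erythroid markers only Alas2, the first enzyme of heme synthesis in red cells, was tested. It was higher after IL-4 (mean 267) than after LPS (56). Both haemoglobin genes were listed at 0, but the authors removed reads with several hits. Their 0 therefore does not show that red-cell RNA was absent. The part of these cells in the results was not tested. In bulk samples, fewer cells of a type and less RNA per cell cannot be told apart.

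Most of the transcribed genes differed between the stimuli. By limma's moderated test on log2(value + 1), with Benjamini-Hochberg adjustment and a threshold of 0.05, 8640 of the 11973 genes differed (72.2%). After LPS 3396 genes were higher (28.4%) and after IL-4 5244 genes were higher (43.8%). The 3 LPS and the 3 IL-4 values did not overlap for 8919 genes (74.5%). Where a gene is called below, its share among members of a list is to be read against these percentages. The median log2 difference of the called genes was 1.58 toward LPS and -1.44 toward IL-4. Beyond 1 on the log2 scale there were 2385 genes higher after LPS and 3733 higher after IL-4, beyond 2 there were 1346 and 1604, beyond 4 there were 415 and 198, and beyond 6 there were 99 and 18. The filter by itself made part of the genes differ, since 543 genes reached 10 in all 3 LPS samples and in no IL-4 sample, and 1085 the reverse. Among the other 10345 genes, 2869 were higher after LPS and 4183 after IL-4.

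**Figure D1:**
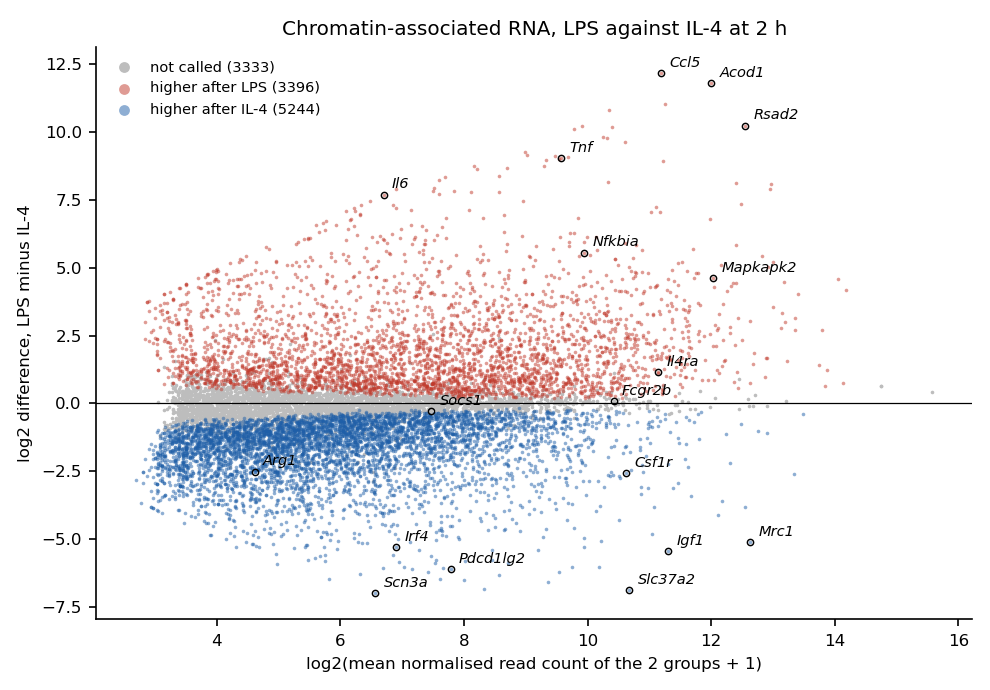
Each point is 1 of the 11973 genes, with the log2 of its mean normalised read count over both groups (plus 1) on the x axis and the log2 difference of LPS minus IL-4 at 2 h on the y axis. Red points were higher after LPS (3396), blue points higher after IL-4 (5244) and grey points not called (3333). The points reach 12.18 (Ccl5) toward LPS and -6.99 (Scn3a) toward IL-4.

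The genes called in each direction were chosen in these same samples, so their shares of all values are a description. Those higher after LPS held 70.3% to 74.1% of all normalised read counts in the LPS samples, against 27.9% to 29.2% in the IL-4 samples and 31.0% to 32.7% in the untreated samples. Those higher after IL-4 held 11.3% to 12.0% in the LPS samples, 47.9% in the IL-4 samples and 42.4% to 44.3% in the untreated samples. The share of calls in each direction depends on how libraries are put on 1 scale. With the authors' scaling 39.3% of the calls were higher after LPS and the median log2 difference of all genes was -0.32. With median-of-ratios rescaling the share was 48.4% and the median -0.06, and with equal totals per sample the share was 23.2% and the median -0.94. Differences below are on the authors' scale and are best read against the median of -0.32.

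Inflammatory cytokines and chemokines stood far apart. Tnf, a central inflammatory cytokine, had 1405, 1651 and 1508 normalised read counts after LPS, and 3, 1 and 2 after IL-4. Il6 had 209, 199 and 210 after LPS and 0 in all 3 IL-4 samples, which makes it at least 68.7-fold higher when 0 is replaced by 3. Il12b, a subunit of IL-12 and IL-23, had 175, 164 and 189 against 0 in all 3, at least 58.7-fold higher. The LPS values lay together and far above every IL-4 and untreated value for all of these genes. Ccl5, a chemokine that draws T cells and monocytes, had 4311, 4579 and 5045 after LPS and 0 in all 3 IL-4 samples, at least 1548-fold higher, and its log2 difference of 12.18 ± 0.52 (SE, limma adjusted p = 1.07e-15) was the largest toward LPS among genes with a mean of at least 50 in the higher group. Cxcl10, an interferon-induced chemokine, had 1424, 1917 and 1920 after LPS and 1, 1 and 0 after IL-4.

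Of 25 cytokine and growth factor genes 17 were tested, of which 14 were higher after LPS, 2 were higher after IL-4 and 1 was not called, with a median log2 difference of 6.52 (5.87 with genes at or under 3 in every IL-4 sample set against 3). Of 20 chemokine ligand genes 14 were tested and all of these were higher after LPS, with a median of 6.42 (4.85 set against 3). The median over all genes was -0.32. Because 10 of the 17 cytokine genes and 11 of the 14 ligand genes passed the filter through 1 group alone, these counts are a description. Il15, which sustains NK and memory T cells, had 17452, 17430 and 18112 after LPS against 740, 851 and 821 after IL-4, a log2 difference of 4.46 in a gene with reads after IL-4 as well. Il10, the anti-inflammatory cytokine, was 47.25-fold higher after LPS. The genes higher after IL-4 were Igf1 and Tgfb1. Igf1, insulin-like growth factor 1, had 142, 94 and 104 after LPS, 5433, 4335 and 5016 after IL-4 and 2149, 1237 and 1418 untreated, so that the untreated samples lay between the stimuli. Vegfa was not called (log2 difference 0.99 ± 0.53, limma adjusted p = 0.0995), but with the replicate block all 17 tested genes were called, 15 of them higher after LPS. Ifnb1, the interferon-β gene, was below the filter with 2, 1 and 0 after LPS and 0 in the IL-4 samples. At 1 h it had 17, 16 and 5 after LPS and at 4 h 0 in all 3.

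**Figure D2:**
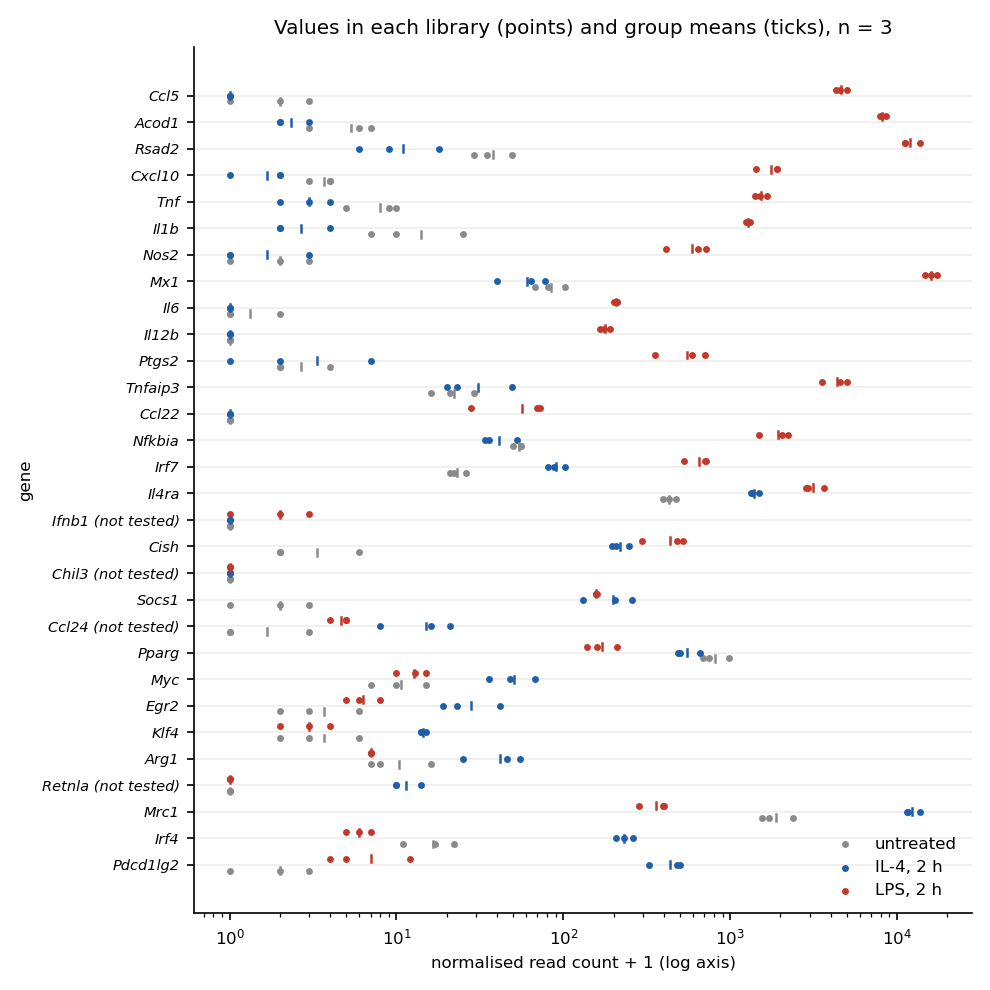
Normalised read counts plus 1 on a log axis for the 30 genes of the panel, 1 point per sample (LPS red, IL-4 blue, untreated grey; n = 3 each) with the group mean as a tick. Ccl5 at the top had 4311 to 5045 after LPS and 0 after IL-4, Pdcd1lg2 at the bottom had 3 to 11 after LPS and 324 to 497 after IL-4, and the values of Socs1 overlapped.

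NF-κB is a family of dimeric factors held in the cytoplasm by IκB proteins, and several of its inhibitors are themselves its target genes. All 15 listed genes for NF-κB subunits and inhibitors were tested and all were higher after LPS, with a median log2 difference of 3.69, and all 15 were called in the same direction under both other scalings. Nfkbia, which encodes IκBα (chromosome 12, 55489409 to 55492647, GRCm38), had 1490, 2236 and 2056 after LPS and 52, 35 and 33 after IL-4, a 48.2-fold difference. Tnfaip3, which encodes the deubiquitinase A20 that ends NF-κB signalling (chromosome 10, 19000910 to 19015410), had 5002, 3572 and 4523 against 48, 22 and 19, a 147-fold difference. Of the subunits, Nfkb1 had 8163, 7628 and 7713 against 1473, 1538 and 1617 (5.08-fold), and Rela 221, 181 and 200 against 51, 48 and 39 (4.36-fold). The smallest log2 difference of the list, 1.53, was that of the inhibitor gene Tnip2. The untreated values of Nfkb1 were 835, 748 and 791 and those of Rel 402, 461 and 508, below both stimuli. Nfkbiz lay lower after IL-4 than untreated, with 38, 25 and 27 against 199, 202 and 233, so members differed in direction after IL-4. Nfkbia, Tnfaip3 and Il6 hold a match to the NF-κB motif GGGNNTTTCC (searched on both strands) within 300 bases around their starts. Of the 17 promoters matched to the listed genes 6 held a match, in Nfkb2, Nfkbia, Rel and Tnfaip3, and Il6 is from the cytokine list. The matches are shown as examples, picked among genes that hold one. They come from RefSeq promoters (GRCm38.p6) and run 5′ to 3′ on the strand of the gene. The motif or its reverse complement is in capitals.
Nfkbia, chr12:55492657-55492686, minus strand: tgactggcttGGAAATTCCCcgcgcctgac
Tnfaip3, chr10:19015403-19015432, minus strand: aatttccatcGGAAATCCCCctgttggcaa
Il6, chr5:30013060-30013089, plus strand: tatcaaatgtGGGATTTTCCcatgagtctc

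The interferon-responsive genes that could be tested were higher after LPS. Of 30 listed, 29 were tested and all 29 were higher, by a median log2 difference of 5.83 (5.47 set against 3). Ifit3 was listed at 0 in all 9 samples. With reads of several hits removed by the authors, this 0 does not show that Ifit3 was silent. Of the 29, 6 passed the filter through the LPS samples alone. Rsad2, the antiviral enzyme viperin (chromosome 12, 26442743 to 26456452), had 13727, 11157 and 11164 after LPS, 17, 8 and 5 after IL-4 and 28, 34 and 48 untreated, a difference of 1202-fold between the stimuli. Mx1, a dynamin-like antiviral GTPase, had 17290, 14734 and 16096 against 77, 39 and 63. Gbp5, a guanylate-binding protein that acts on intracellular bacteria, had 10552, 11062 and 10673 against 44, 37 and 33. The smallest difference of the list was that of Oas2, an enzyme of the RNase L pathway, at 7.79-fold. Irf7, a factor that widens the interferon response, was also higher after LPS, with 528, 711 and 704 against 87, 80 and 101. For Irf7 the IL-4 values lay above the untreated values of 21, 20 and 25. Of 15 IRF and STAT genes 12 were higher after LPS and 3 after IL-4, namely Irf4, Irf3 and Stat6 (1 of the 15 passed the filter through 1 group alone). The interferon-stimulated response element (ISRE) core GAAANNGAAA, searched on both strands, was found in 14 of the 26 promoters matched to the listed genes. These 3 are shown for 2 genes of the list and the chemokine Cxcl10, with the core or its reverse complement in capitals.
Rsad2, chr12:26456553-26456582, minus strand: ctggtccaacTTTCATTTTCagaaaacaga
Ifit1, chr19:34640775-34640804, plus strand: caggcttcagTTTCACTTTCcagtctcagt
Cxcl10, chr5:92349083-92349112, minus strand: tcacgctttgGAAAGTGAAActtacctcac

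Genes higher after LPS lay next to each other in some families. On chromosome 1 these were genes of the interferon-inducible p200 family, DNA sensors that include Aim2 and Ifi204. Aim2 had a mean of 3004 ± 473 (SD, n = 3) after LPS and 177 ± 49 after IL-4, and Ifi205 one of 2536 ± 141 and 2 ± 1. Runs of neighbouring tested protein-coding genes, each called in this direction with a log2 difference of at least 1, held the Schlafen genes on chromosome 11 (82952102 to 83463040, 9 genes, median log2 difference 4.58) and the Phf11 genes on chromosome 14 (59201228 to 59548904, 8 genes, median 4.84). Members of these families are close in sequence, and reads with several hits were removed by the authors, so single members are less certain than the runs. By the same rule, the longest run higher after IL-4 had 10 genes on chromosome X (52988078 to 59585572), from Hprt to Fgf13, with a median of -1.94, and it holds no family of related genes.

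Genes of the type 2 response were higher after IL-4, with exceptions. Of 27 IL-4-responsive genes 22 were tested: 15 were higher after IL-4, 5 were higher after LPS and 2 were not called, with a median log2 difference of -2.32 (-2.24 set against 3). With equal totals 2 were higher after LPS, and still 15 after IL-4. In this list 10 tested genes passed the filter through 1 group alone. Mrc1, the mannose receptor (chromosome 2, 14229414 to 14332023), had 393, 285 and 401 after LPS, 11547, 11634 and 13780 after IL-4 and 2386, 1541 and 1708 untreated. It was 34.25-fold higher after IL-4, and its untreated values lay between the stimuli. Pdcd1lg2, which encodes the checkpoint ligand PD-L2, had 11, 3 and 4 after LPS, 324, 479 and 497 after IL-4 and 1, 0 and 2 untreated. Irf4, a factor of alternative activation, had 6, 4 and 5 against 230, 205 and 260, a 46.3-fold difference (log2 difference -5.28 ± 0.36, limma adjusted p = 4.68e-12). Ptgs1, the constitutive cyclooxygenase, had 8, 11 and 6 against 617, 456 and 458, and Mgl2, a galactose-type lectin, 0 in all 3 LPS samples against 53, 21 and 27, at least 11.2-fold higher.

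Unlike Mrc1, some textbook markers of IL-4-treated mouse macrophages had low values at this time. Arg1, arginase 1, had 24, 45 and 54 after IL-4 against 6 in each LPS sample, a 6.83-fold difference. Retnla, a secreted protein of type 2 inflammation, was below the filter with 9, 9 and 13 after IL-4 and 0 after LPS, at least 3.44-fold higher. By 4 h it had 74, 140 and 129 after IL-4. Ccl24, an eosinophil chemokine, was below the filter with 7, 15 and 20 against 3, 4 and 4. Chil3 was listed at 0 in all 9 samples, and at 0 in every 1 h and 4 h sample as well. Since reads with several hits were removed, this 0 does not show that Chil3 was silent. Klf4 and Egr2, early factors of this response, had 13, 14 and 13 and 41, 18 and 22 after IL-4 against 1, 2 and 3 and 5, 7 and 4 after LPS. Pparg, the lipid-sensing nuclear receptor, had 660, 487 and 499 after IL-4 and 210, 138 and 159 after LPS, both below the untreated 986, 742 and 689. After IL-4 this held at 2 h only: Pparg had 1977, 1645 and 1563 at 1 h, above untreated, and 1305, 786 and 807 at 4 h. After LPS it had 397, 339 and 303 at 1 h and 96, 91 and 103 at 4 h. Myc was 4.26-fold higher after IL-4. Ccl22, a chemokine usually listed with the IL-4 response, was the exception furthest from the list: it had 27, 71 and 69 after LPS and 0 in all 3 IL-4 samples, at least 18.6-fold higher.

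A part of the list stood above untreated after either stimulus. Il4ra, the IL-4 receptor α chain, had 2918, 2857 and 3643 after LPS, 1490, 1333 and 1350 after IL-4 and 427, 397 and 471 untreated, and was 2.26-fold higher after LPS than after IL-4. Cish, a feedback inhibitor of STAT5 signalling, had 296, 523 and 482 against 195, 207 and 248, with 1, 5 and 1 untreated. Its log2 difference of 0.96 ± 0.33 (limma adjusted p = 0.0111) fell below the threshold with equal totals (0.33, adjusted p = 0.366), without replicate 3 (adjusted p = 0.0735) and without LPS replicate 2 (adjusted p = 0.0542). Socs1, an inhibitor of JAK kinases, had 155, 155 and 159 after LPS, 202, 130 and 257 after IL-4 and 0, 2 and 1 untreated. The groups overlapped, and the difference of -0.27 ± 0.42 (limma adjusted p = 0.571) had a 95% interval from -1.13 to 0.59, so a difference of up to 1.13 toward IL-4 was not excluded by these samples. Socs3, an inhibitor of gp130 receptors, and Socs2, of the growth hormone receptor, were apart: Socs3 had 483, 414 and 462 after LPS against 3, 0 and 1, and Socs2 0, 1 and 4 after LPS against 62, 47 and 62. Pdcd1lg2 holds a match to the STAT6 motif TTCNNNNGAA, with a spacer of 4 bases, and Cish to the STAT motif TTCNNNGAA, with a spacer of 3. Both are shown to set the spacers side by side, with 1 match of each motif in capitals. The promoter of Cish holds 2 matches to its motif. The second of them ends the sequence shown and is left in lowercase.
Pdcd1lg2, chr19:29410827-29410856, plus strand: catgctccagTTCCTCAGAAaccattctgg
Cish, chr9:107296649-107296678, plus strand: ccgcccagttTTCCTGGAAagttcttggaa

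Another 10 genes were picked because they lay far from their untreated level after both stimuli and had a 95% interval of the LPS minus IL-4 difference within -1 and 1. Fcgr2b, the inhibitory Fc receptor, had 1242, 1446 and 1523 after LPS and 1124, 1453 and 1433 after IL-4, with 235, 160 and 158 untreated. St7 had 2159, 2575 and 2998 against 2685, 3387 and 3344, with 194, 196 and 200 untreated. Nrp1, a co-receptor for semaphorins and VEGF, had 411, 371 and 356 against 374, 258 and 276, with 2391, 1636 and 1683 untreated, and Rab7b, a GTPase of late endosomes, had 16, 23 and 23 against 30, 15 and 16, with 182, 146 and 146. The groups overlapped for all 4 and none of them was called. Other settings gave calls. St7 was called toward IL-4 with the replicate block (log2 difference -0.29, limma adjusted p = 0.00839) and with equal totals (-0.92, limma adjusted p = 1.91e-06). Nrp1 was called toward LPS with the replicate block (0.34, limma adjusted p = 0.00651) and with median-of-ratios rescaling (0.61, limma adjusted p = 0.0198), and Rab7b without replicate 1 (0.54, limma adjusted p = 0.00693). With equal totals 7 of the 10 were called toward IL-4, among them Fcgr2b and Pgap1 with the opposite sign (log2 differences of -0.56 and -0.52, against 0.07 and 0.10), so whether these genes differ depends on the scale. Over all genes, the 95% interval of the log2 difference lay within -1 and 1 for 3249 (27.1%), of which 2243 were not called. Another 1090 genes were not called with a wider interval.

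Receptors and transducers of both pathways moved in both directions. Of 23 genes of TLR4 sensing and signalling, 11 were higher after LPS, 8 were higher after IL-4 and 4 were not called, with a median log2 difference of 0.42 that turned to -0.20 with equal totals. Tlr4 itself had 101, 103 and 142 after LPS against 306, 489 and 534 after IL-4 and 304, 356 and 388 untreated, 3.84-fold higher after IL-4. The co-receptor Cd14 went the other way, with 219, 242 and 203 against 10, 15 and 9. Adaptors and kinases differed likewise: Myd88 was 9.67-fold and Irak2 17.6-fold higher after LPS, while Irak4 (2.65-fold), Tab1 (4.80-fold) and Irf3 were higher after IL-4. Of 9 Toll-like receptors tested 6 were higher after LPS, among them Tlr2, the lipoprotein receptor, with 242, 357 and 313 against 10, 15 and 7. Tlr8 had 332, 365 and 419 against 301, 400 and 420.

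Genes of the IL-4 receptor pathway were mostly higher after LPS. Of 13, 9 were higher after LPS and 1 after IL-4, with a median of 0.77 (0.13 with equal totals, where the counts were 6 and 3). Il13ra1, the chain that pairs with the IL-4 receptor α chain on non-lymphoid cells, had 327, 263 and 282 after LPS against 19, 14 and 14. Il2rg, the common γ chain, was 7.25-fold and Jak1 4.27-fold higher after LPS. Stat6 was the gene higher after IL-4, with 207, 195 and 170 against 108, 125 and 91, a 1.76-fold difference.

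Kinase genes, the target class of the study's inhibitors, were called in both directions. Of 112 listed, 104 were tested: 43 were higher after LPS, 40 were higher after IL-4 and 21 were not called, with a median of 0.05. Over all genes 28.4% were higher after LPS and 43.8% after IL-4, with a median of -0.32. Of the 104, 6 passed the filter through 1 group alone. The split was 48 and 34 with median-of-ratios rescaling and 35 and 56 with equal totals. Among the largest differences toward LPS were those of the tyrosine kinase Src (960, 578 and 654 against 28, 21 and 24) and of Mapkapk2, the kinase downstream of p38 that stabilises cytokine mRNA (9545, 7122 and 7374 against 409, 304 and 275). Those toward IL-4 were Map2k6, an activator of p38 (2, 3 and 4 after LPS against 89, 112 and 113), Prkch, a protein kinase C of the η type (162, 154 and 166 against 2253, 2130 and 2236), and Eif2ak3, which encodes the stress kinase PERK (15, 22 and 23 against 152, 188 and 176). Map2k6 and Mapkapk2, upstream and downstream of p38, therefore stood on opposite sides. Both were picked for their large differences, Map2k6 passed the filter through the IL-4 samples alone, and other p38 pathway genes are not given here. Csf1r, the receptor of the macrophage growth factor CSF-1, had 427, 501 and 441 after LPS against 2780, 2708 and 2603, and Insr, the insulin receptor, was 6.78-fold higher after IL-4. Of 7 MAPK phosphatase genes tested 4 were higher after LPS and 3 after IL-4, but 5 of the 7 passed the filter through 1 group alone, so this is a description: Dusp1 had 553, 890 and 934 against 5, 7 and 4, and Dusp4 2, 7 and 4 against 81, 76 and 93. Of 22 immediate early genes 15 were tested, with 11 higher after LPS, and Egr2 higher after IL-4 (5 of the 15 passed through 1 group alone). With the replicate block 2 were higher after IL-4, and with equal totals 6 were higher after LPS and 2 after IL-4.

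**Figure D3:**
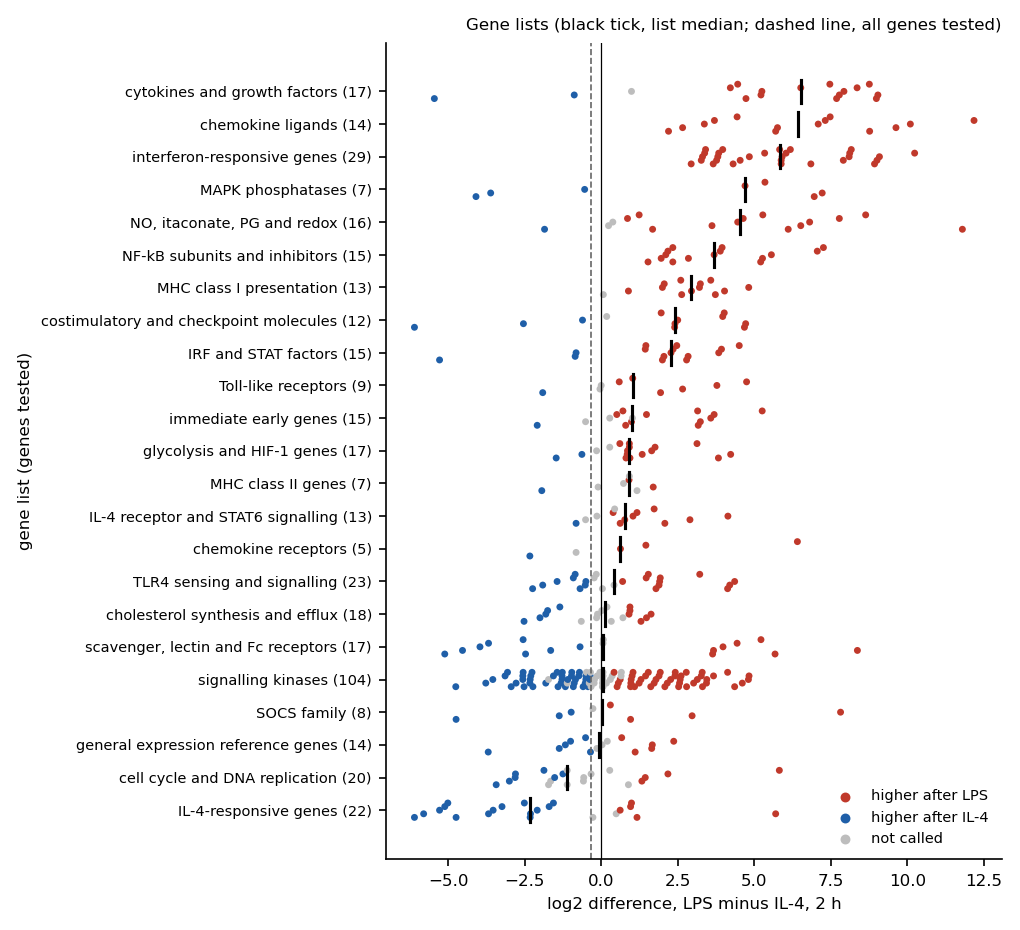
Log2 difference of LPS minus IL-4 at 2 h (x axis) for each tested gene of the 23 lists (rows, number tested in brackets), red if higher after LPS, blue if higher after IL-4 and grey if not called. Black ticks are list medians, from 6.52 for cytokines to -2.32 for IL-4-responsive genes, and the dashed line is the median of all genes (-0.32).

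Many effector enzymes were higher after LPS. Of 16 tested genes for nitric oxide, itaconate, prostaglandin and redox enzymes 13 were higher after LPS and 1 after IL-4, with a median of 4.55, and 5 of the 16 passed the filter through 1 group alone. Acod1, which makes itaconate, had 7880, 8562 and 8100 after LPS against 2, 1 and 1. Nos2, the inducible nitric oxide synthase, had 413, 719 and 643 against 0, 2 and 0, and Ptgs2, the inducible cyclooxygenase, 354, 708 and 592 against 6, 0 and 1. The constitutive form Ptgs1 lay on the other side, as given above. Slc7a2, an arginine transporter, stood above untreated (12, 14 and 11) after both, with 1044, 844 and 913 after LPS and 245, 289 and 342 after IL-4. Alox5ap, the leukotriene pathway protein, was the gene higher after IL-4. Of 17 glycolysis and HIF-1 genes 13 were higher after LPS and 2 after IL-4 with a median of 0.92, and 6 and 3 with equal totals (median 0.29). Pfkfb3, which drives glycolysis through fructose 2,6-bisphosphate, was 18.65-fold higher after LPS, while Gpi1, glucose-6-phosphate isomerase, was 2.84-fold higher after IL-4.

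Surface molecules split by kind. All but Erap1 of the 13 genes of MHC class I presentation were higher after LPS (median 2.95), among them Nlrc5, their transactivator, at 28.1-fold. With equal totals 11 were higher after LPS and 1 after IL-4. MHC class II genes gave few calls: of 7 tested 2 were higher after LPS and 1 after IL-4, with the replicate block 5 and 1, and with equal totals 0 and 1 (median 0.28). H2-Ab1 was 1 of these 2, with 39, 17 and 21 against 21, 2 and 6, and its call was lost under 10 of the alternatives. Among 12 costimulatory and checkpoint genes 8 were higher after LPS and 3 after IL-4. Cd40 had 5481, 5220 and 4948 against 369, 316 and 314, with 44, 27 and 43 untreated, and Cd274, which encodes PD-L1, was 5.33-fold higher after LPS, while PD-L2 was higher after IL-4. Of 17 scavenger, lectin and Fc receptors 7 were higher after LPS and 8 after IL-4, with a median of 0.06 that turned to -0.57 with equal totals. The filter was passed through 1 group alone by 3 of these 17, by 1 costimulatory gene and by 1 MHC class II gene. Clec4e, the receptor Mincle, had 716, 783 and 777 against 2, 1 and 1, and Msr1, scavenger receptor A, was 51.95-fold higher after LPS. Clec7a, the β-glucan receptor Dectin-1, was 24.6-fold, Cd163, the haptoglobin-haemoglobin receptor, 16.7-fold and Trem2, a lipid sensor, 5.92-fold higher after IL-4. Of 5 chemokine receptors tested 3 were higher after LPS, but 2 of the 5 passed the filter through 1 group alone, so this is a description. Cxcr4, with 1, 3 and 3 after LPS against 23, 12 and 12, was higher after IL-4. It had 90, 72 and 53 untreated. With equal totals the receptor counts were 2 and 2 (median 0.04), and the call of Cxcr2, a receptor of neutrophil chemokines, was lost under 11 of the alternatives.

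Cholesterol, cell cycle and reference genes gave mixed counts. Of 18 genes of cholesterol synthesis and efflux 6 were higher after LPS and 5 after IL-4, with a median of 0.11 that turned to -0.52 with equal totals. The efflux pump Abcg1 was 3.43-fold higher after IL-4. Of 20 genes of the cell cycle and DNA replication 4 were higher after LPS, 7 were higher after IL-4 and 9 were not called. The filter was passed through 1 group alone by 3 of these 20 and by 1 of the 18 cholesterol genes. With the replicate block the counts were 5 and 11, and without replicate 1 there were 12 higher after IL-4. Mki67, a proliferation marker, had 98, 300 and 320 after IL-4 and 72, 490 and 429 untreated, low in replicate 1, against 321, 441 and 431 after LPS. Ccnd2, cyclin D2, had 586, 589 and 631 after LPS against 16, 7 and 8. Of 14 genes often used as references 5 were higher after LPS and 6 after IL-4: Actb was 5.17-fold higher after LPS and Hprt 2.59-fold higher after IL-4. The median of this list was -0.06 on the authors' scale, 0.20 with median-of-ratios rescaling and -0.67 with equal totals.

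The largest differences toward IL-4 were in genes outside these lists. Scn3a, a sodium channel subunit, had 2, 0 and 0 after LPS against 133, 198 and 230, and a log2 difference of -6.99 ± 0.41 (limma adjusted p = 3.48e-13). Slc37a2, a sugar-phosphate transporter of macrophages (chromosome 9, 37229149 to 37255738), had 29, 22 and 27 against 4075, 2951 and 2681, with 782, 737 and 791 untreated, so that LPS lay below and IL-4 above untreated in every sample. Tmem273 (9, 17 and 12 against 967, 1573 and 1373) and Prrg1 (28, 14 and 17 against 1289, 1525 and 1574) had the same order around the untreated level. Hpgd, which degrades prostaglandin E2, differed in that order: it had 5, 1 and 4 after LPS, 176, 339 and 328 after IL-4 and 388, 403 and 447 untreated, the highest of the 3. Gpr155, Cd300lb, Prps1, Nrg2 and Rtn4rl1 make up the 10 genes, from -6.83 to -6.28. Toward LPS the ranked genes outside the lists were Mmp13, a collagenase (2261, 2518 and 3043 against 2, 0 and 0), Art3, Ifi205, Cd69 (650, 1219 and 1175 against 1, 1 and 0) and Traf1. Art3 spans Cxcl10 and Cxcl11 on the other strand. Since the use of strand in counting is not given in the sources used here, its 1848, 2720 and 2740 after LPS may be reads of those chemokines.

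Of the 1744 non-coding genes 35.8% were higher after LPS and 37.1% after IL-4, and of the 10028 protein-coding genes 26.9% and 45.4%. The non-coding genes named next overlap no other gene. Gm39086 on chromosome 7 (126615585 to 126618481) had 113, 78 and 130 after LPS and 0 after IL-4, at least 35.7-fold higher, and AW112010 on chromosome 19 (11047612 to 11050566) had 277, 294 and 263 against 1, 2 and 3. Gm32098 on chromosome 8 (26663301 to 26698634) had 14, 17 and 11 against 382, 390 and 384, a 27.5-fold difference toward IL-4.

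Longer genes were called more often. The protein-coding genes were split by length into 5 bins of equal number. In the shortest bin (median 6.15 kb) 25.0% were higher after LPS and 36.5% after IL-4, and in the longest (median 128 kb) 32.4% and 46.0%. The untreated level rose along with length, from a median of 23.7 to 347 normalised read counts. Among genes in the upper 2 of 5 bins of the untreated level, 26.5% to 32.2% were higher after LPS and 42.7% to 50.2% after IL-4 across the length bins. By chromosome, autosomes and X gave 21.6% to 33.7% higher after LPS and 36.6% to 53.1% higher after IL-4.

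The 2 h comparison was set against those at 1 h and 4 h, which share no sample with it. The LPS minus IL-4 difference changed from 1 h to 2 h for 4379 genes (36.6%), toward LPS for 2310 and toward IL-4 for 2069. It changed from 2 h to 4 h for 1711 genes (14.3%), toward LPS for 800 and toward IL-4 for 911. The second count was 2638 when replicate number entered the model as a block. These counts lean on replicates 2 and 3: without replicate 2 they were 2716 and 569, without replicate 3 they were 2660 and 524, and without replicate 1 they were 5185 and 2884. Of the 29 interferon-responsive genes 27 moved toward LPS from 1 h to 2 h and none toward IL-4, and their median difference was 2.48 at 1 h, 5.83 at 2 h and 5.95 at 4 h. In MHC class I presentation 11 of 13 moved toward LPS over the same hour (median 0.74 and 2.95). For NF-κB subunits and inhibitors the median was 3.77 at 1 h, 3.69 at 2 h and 2.38 at 4 h.

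Single genes show how much the time mattered. Mx1 had 792, 272 and 233 after LPS at 1 h against 118, 91 and 83 after IL-4, and its difference moved by 6.17 ± 0.46 to the 8.10 of 2 h (limma adjusted p = 2.42e-10). Igf1 had 3726, 3348 and 3229 after LPS at 1 h and 5677, 3388 and 3572 after IL-4, a difference of -0.26 at 1 h that was -5.45 at 2 h. Smad3, a transducer of TGF-β, changed sign, with 1311, 931 and 771 against 153, 116 and 123 at 1 h and 54, 31 and 35 against 183, 147 and 151 at 2 h. Socs1 had 20, 4 and 10 after LPS at 1 h against 160, 197 and 175 after IL-4, so the overlap of its groups was found at 2 h and not at 1 h. From 2 h to 4 h, Cish turned from 0.96 to -3.42, with 27, 19 and 22 after LPS and 193, 284 and 284 after IL-4 at 4 h. Slc9a9, an endosomal sodium-proton exchanger, had 5756, 4130 and 4895 after LPS at 2 h against 11574, 9894 and 9719, and at 4 h 243, 148 and 174 against 11373, 8978 and 9776. Gm5150 had 46, 66 and 97 against 22, 58 and 66 at 2 h, where the groups overlapped (called toward LPS with the replicate block, log2 difference 0.59, limma adjusted p = 0.0404), and stood on opposite sides at 1 h (14, 10 and 9 against 79, 158 and 183) and 4 h (567, 745 and 1066 against 12, 26 and 25).

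**Figure D4:**
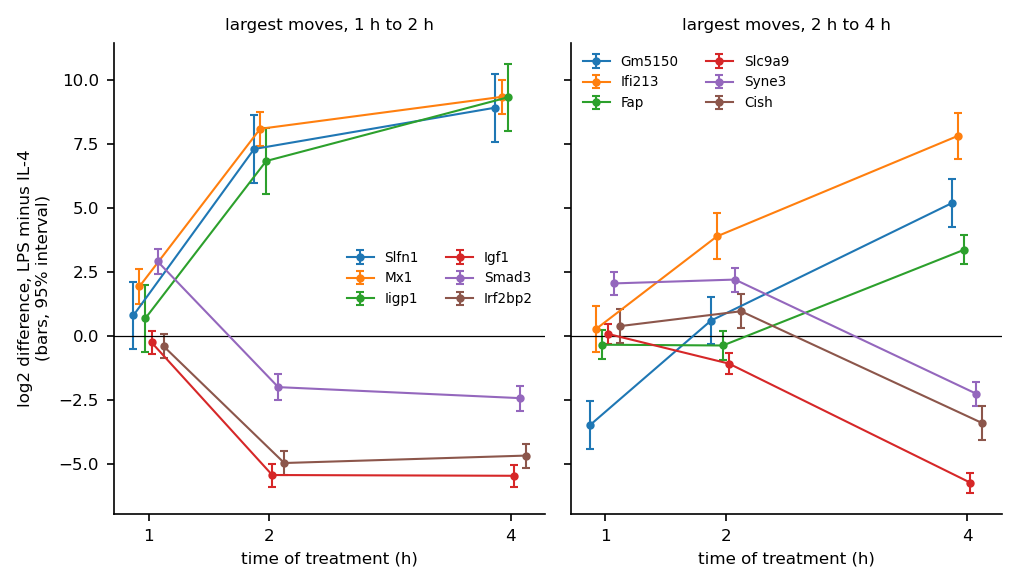
Log2 difference of LPS minus IL-4 (y axis, with the 95% interval from limma as bars) at 1, 2 and 4 h (x axis, points shifted slightly) for the 3 genes that moved most in each direction from 1 h to 2 h (left) and from 2 h to 4 h (right). Smad3 goes from 2.91 at 1 h to -2.01 at 2 h, and Cish from 0.96 at 2 h to -3.42 at 4 h.

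Promoter motifs differed in how their matches fell. RefSeq promoters of 300 bases (250 before and 50 after each start, GRCm38.p6) were matched to 9404 of the tested genes by gene identifier, with 12094 promoters. Promoters on chromosome 18 were not used here. The ISRE core was found in 3.44% of the 32851 promoters used, in 8.40% of the 1357 promoters of genes higher after LPS by at least 2 on the log2 scale, in 1.92% of the 1715 of genes higher after IL-4 by as much and in 3.35% of the 3190 of genes not called. The NF-κB motif was found in 1.63%, 3.24%, 1.17% and 1.66% of the same sets. AP-1 sites (TGANTCA) were found in 7.81%, 8.62%, 5.54% and 4.92%. The STAT6 motif did not follow the direction, at 6.95%, 6.12%, 5.66% and 6.21%, and was found in 2 of the 23 promoters of tested IL-4-responsive genes, those of Pdcd1lg2 and Tfec. The STAT motif with a spacer of 3 was found in 8.30%, 8.77%, 5.71% and 6.77%. The first share of each motif includes promoters of genes not tested. In the 12094 promoters of tested genes the shares were 3.43% (ISRE core), 1.76% (NF-κB), 5.56% (AP-1), 5.71% (STAT6) and 6.995% (spacer of 3). Against these, the STAT6 share of genes higher after LPS lay above the reference and not below it. The motifs can overlap, as in the promoter of Myd88, where an ISRE core overlaps a STAT motif with a spacer of 3. None of the 8 sequences shown has such an overlap. These shares are a description of letters in the promoters and not of factor binding.

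**Figure D5:**
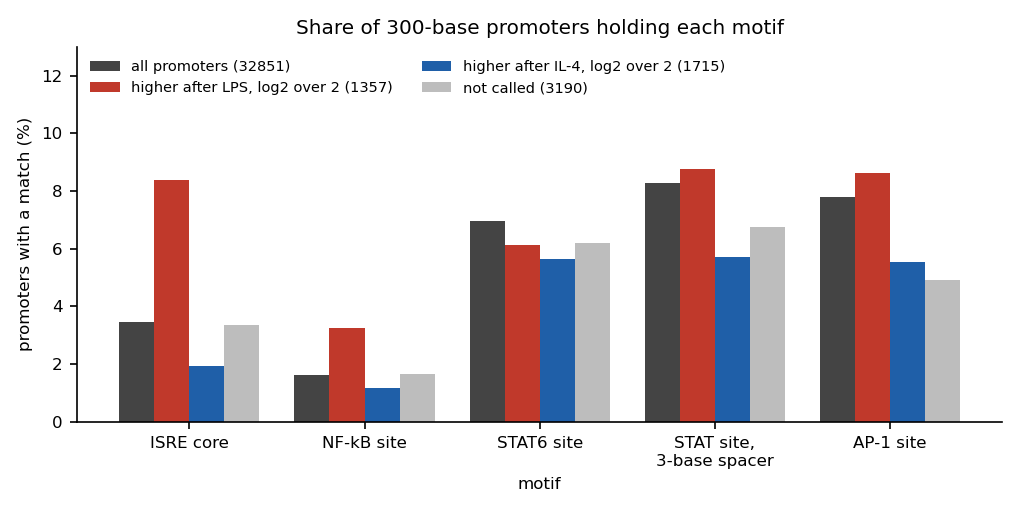
Percent of RefSeq promoters (300 bases) with a match on either strand (y axis, from 0) for 5 motifs (x axis), in all promoters (dark), promoters of genes higher after LPS (red) or IL-4 (blue) by at least 2 on the log2 scale, and of genes not called (grey). The red bar is the highest for 4 of the motifs, among them the ISRE core (8.40%) and the NF-κB motif (3.24%). For the STAT6 motif it lies below that of all promoters (6.12% against 6.95%). The STAT6 share in promoters of tested genes alone, not drawn, was 5.71%.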

How the data were processed

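RNA was measured in 27 samples of wild-type BMDMs. Per the study's methods, the authors aligned single-end reads from Smart-seq2 libraries to mm10 with TopHat2 (2.1.1), removed reads with several hits or in blacklisted regions (bedtools 2.29.2), counted reads per gene (GRCm38.p6) and scaled libraries on invariant genes. What the authors deposited is a whole-number normalised read count per gene and sample, treated here as a score since it is no raw count. Sequencing depth is therefore unknown, and no counting interval is given. In each of the 6 samples every whole value up to 262 or beyond occurred.

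For the comparison 1 was added to each value, log2 taken and limma (3.58.1, in R 4.3.3) fitted (mean-variance trend, 9 groups of 3 samples, 18 residual degrees of freedom, Benjamini-Hochberg over 11973 genes, threshold 0.05). Fold changes are ratios of group means, and log2 differences understate changes of low genes. For a gene with 1 group near 0 a log2 difference depends on the pseudocount and is no bound. Folds written as "at least" replace 0 by 3. A fold is given only where every sample exceeded 3. The genes and lists were chosen with earlier results of these data known. Named genes were a panel of 30, list members, and genes ranked by log2 difference (10 per direction, 3 for kinases and for non-coding genes, 3 per move between times, 5 per direction for genes alike after both), with a mean of at least 50 in the group where they were highest, other times or untreated included for the last 2 kinds. The genes ranked at 2 h, kinases and non-coding genes included, also had no overlap between the 3 LPS and the 3 IL-4 values. A few of these are not reported here. Alternatives numbered 21 planned and 1 added. List members and 1 h and 4 h values beyond that rule were chosen after their values were seen. The fit was also run on simulated data, in which 200 of 11973 genes were changed, low genes were raised to a minimum level and noise was normal. There it recovered 61% of changes of 1 and 94% of changes of 2 on the log2 scale, with 10 false calls. In the data 72.2% of the genes were called and low genes were kept, so these figures do not carry over to this comparison. Deviations of same-numbered LPS and IL-4 samples correlated at 0.517, 0.291 and 0.329, and those of replicates 2 and 3 crosswise at 0.256 and 0.279, so that mainly replicate 1 stood apart. As each same-numbered correlation was over 0.1, the replicate number was used as a block in an alternative. Of the tested genes 5928 overlap another gene, and whether counting used strand is not given in the sources used here.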

Additional observations from a re-analysis of the deposited data

Results flagged for a closer look

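The LPS minus IL-4 difference at 2 h was set against the same difference at 1 h and at 4 h in 1 limma model, and a gene was listed where the difference itself changed between times (adjusted p under the threshold of 0.05). This held for 4379 genes between 1 h and 2 h and for 1711 between 2 h and 4 h. From 1 h to 2 h the largest moves toward LPS were those of Slfn1 (6.51 on the log2 scale), Mx1 (6.17) and Iigp1 (6.15), and toward IL-4 those of Igf1 (-5.19), Smad3 (-4.92) and Irf2bp2 (-4.57). From 2 h to 4 h they were those of Gm5150 (4.61), Ifi213 (3.94) and Fap (3.75) toward LPS, and of Slc9a9 (-4.67), Syne3 (-4.46) and Cish (-4.38) toward IL-4. With 3 samples per group no single sample was tested for standing apart.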

How the results depend on the processing

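The count of 8640 genes that differed at 2 h was 5188 among the 6712 genes with a mean of at least 50 and 4360 among the 6045 genes that overlap no other gene, where fewer genes were tested. Leaving out replicates gave 7453 to 8801, and with the 6 samples alone, without a block, the count was 8394. With the replicate block it was 9252, and 8966 when the block was fitted to the 6 samples alone, a setting chosen after seeing the data. The count of changes from 1 h to 2 h (4379) was 2122 among genes without overlap, 5189 with the replicate block and 2660 to 5185 with replicates left out. That from 2 h to 4 h (1711) was 2638 with the replicate block, 3081 with sample weights, 618 with replicates 2 and 3 averaged, 735 among genes without overlap and 524 to 2884 with replicates left out. The cause was not tested. A fit to the 6 samples alone gives no value for changes between times. Fcgr2b and Pgap1, which were not called, were called with the opposite sign with equal totals (-0.56 and -0.52). Of 3086 values of 144 named genes under the alternatives 3036 kept the call or its absence, 18 of them with the opposite sign in genes not called, 25 lost the call, 23 gained one and 2 turned with a call. Of 1012 list counts 939 stayed within 1.5 times. The replicate block added calls for St7, Nrp1, Gm5150 and Rnf19b (-0.20, adjusted p = 0.0208) and moved the counts of MHC class II, cell cycle and immediate early genes as given above. It also moved the counts higher after LPS to 15 (cytokines), 10 (IL-4 receptor pathway) and 6 (IL-4-responsive genes), and the kinase counts to 44 and 44. Depth is unknown, so differences of low genes are limited by the step of 1 normalised read count.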
